A study of Mus musculus with 1152 samples.

Results

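The vascular endothelial growth factor (VEGF) receptors, the neuropilins and the ligand gene Vegfc were examined in aged mice, in lymphatic endothelial cells (LECs) sorted from the plexus of lymphatic vessels around the nasopharynx (NPLP). The members were chosen by name: Flt4, Kdr, Flt1, Nrp1, Nrp2 and Vegfc, which are 6 of the 23168 genes in the table, and all 6 were found there. The strain was c57bl/6 in the labels and C57BL/6J in the study's methods, the labels give the mice only as aged, and per the methods nasopharyngeal mucosa of both sexes had been pooled. Cells positive for CD31 and podoplanin (PDPN) had been placed singly in wells for Smart-seq3, whose reads cover whole transcripts. The cells of the table, 56.9% of those labelled, all belonged to this single group. The labels do not tie cells to animals. The cells therefore count as 1 pool without replicates, no test was made, and the 95% exact (Clopper-Pearson) intervals given with shares cover counting error only.

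VEGF receptors are receptor tyrosine kinases of the endothelial surface. VEGFR3, encoded by Flt4, binds VEGF-C and VEGF-D and is the main growth receptor of lymphatic vessels. VEGFR2, encoded by Kdr, binds VEGF-A and also processed VEGF-C, while VEGFR1, encoded by Flt1, binds VEGF-A, VEGF-B and placental growth factor and is best known from blood vessels. Neuropilins are co-receptors for VEGFs and for class 3 semaphorins. Neuropilin 2 is typical of veins and lymphatics, and neuropilin 1 of arteries and other blood endothelium.

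On mm10 with the GENCODE M21 annotation, Flt4 (ENSMUSG00000020357.3) spans chr11:49609263-49652739 on the plus strand. Kdr (ENSMUSG00000062960.10) spans chr5:75932827-75978458 and Flt1 (ENSMUSG00000029648.13) chr5:147561604-147726011, both on the minus strand. Nrp2 (ENSMUSG00000025969.15) spans chr1:62703285-62818695 and Nrp1 (ENSMUSG00000025810.9) chr8:128358604-128503363, and Vegfc (ENSMUSG00000031520.6) spans chr8:54077606-54187096, all on the plus strand.

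The promoter sequences of the closest relatives among the members are shown because each pair was detected so unequally: Kdr with Flt1, and Nrp2 with Nrp1. The sequences are the 200 bases from 250 to 51 bases before the RefSeq transcription start (GRCm38.p6, the assembly also called mm10), written 5′ to 3′ on the strand of the gene. Capitals mark GGAA or its reverse complement TTCC, the core bound by ETS factors.
Kdr, chr5:75978506-75978705, minus strand: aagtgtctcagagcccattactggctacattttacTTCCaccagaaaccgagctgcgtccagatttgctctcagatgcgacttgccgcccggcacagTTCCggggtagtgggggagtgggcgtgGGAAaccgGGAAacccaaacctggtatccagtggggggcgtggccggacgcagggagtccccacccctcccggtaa
Flt1, chr5:147726062-147726261, minus strand: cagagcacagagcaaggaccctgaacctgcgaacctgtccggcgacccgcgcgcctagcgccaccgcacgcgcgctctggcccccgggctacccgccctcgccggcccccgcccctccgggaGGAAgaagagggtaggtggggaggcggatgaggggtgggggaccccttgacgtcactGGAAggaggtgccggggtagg
Nrp2, chr1:62703067-62703266, plus strand: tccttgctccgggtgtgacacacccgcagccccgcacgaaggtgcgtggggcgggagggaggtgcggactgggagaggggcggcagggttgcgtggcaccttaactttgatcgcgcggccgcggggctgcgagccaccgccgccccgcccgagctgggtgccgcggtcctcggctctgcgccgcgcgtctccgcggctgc
Nrp1, chr8:128358823-128359022, plus strand: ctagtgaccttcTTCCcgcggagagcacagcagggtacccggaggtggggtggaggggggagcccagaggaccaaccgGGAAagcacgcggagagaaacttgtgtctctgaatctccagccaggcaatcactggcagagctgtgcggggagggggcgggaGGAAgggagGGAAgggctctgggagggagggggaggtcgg

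GGAA, searched on both strands, occurred 4 times in the Kdr window, 2 times in that of Flt1, 4 times in that of Nrp1 and 0 times in that of Nrp2. Among 32851 mouse promoters, 89.2% held the motif in the same window, with a median of 2 matches. The GC box GGGCGG, also searched on both strands, occurred 4 times in the Nrp2 window, 2 times in that of Flt1, and 1 time in those of Kdr and Nrp1, against 24.6% of all promoters with any match. TATAAA occurred in none of the 6 windows and in 9.14% of all promoters. The G and C content was 75.5% for Nrp2, 73% for Flt1, 66% for Nrp1 and 61% for Kdr, against a median of 51.5% over all promoters. The Nrp1 window lies inside an intron of a longer GENCODE transcript and none of the 4 overlaps an exon. The Flt4 window is not shown because it overlaps an annotated exon. These matches describe letters only. The windows of Kdr and Nrp1 held the same number of matches to GGAA and to GGGCGG, although one gene was found in nearly all cells and the other in nearly none.

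Reads recovered from the deposited values ranged from 7046 to 10727631 per cell, with a median of 148202.5, so a missing gene means less in the shallow cells. Levels are given as reads per 10000 reads of the cell, or as the deposited scale, the natural log of 1 plus that value (ln). For shares at equal depth, cells with at least 20000 reads were thinned to 20000 reads and the 88 shallower cells were left out. Most lymphatic identity genes were present in nearly all cells: Prox1, the master regulator of lymphatic identity, in 97.1%, the hyaluronan receptor Lyve1 in 95.9%, Pdpn in 94.8% and the matrix protein gene Mmrn1 in 100%.

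Flt4 was found in every cell (100%, interval 99.4 to 100%). Its level was 0.209 reads per 10000 in the lowest cell, 11.9 in the median cell and 51.1 in the highest, and the mean was 13.01 (SD 7.70 over cells). The 5th and 95th percentiles of cells were 3.06 and 26.7. On the ln scale the mean was 2.48 (SD 0.60). By mean level Flt4 ranked 92nd of the 20981 genes with a read. Thinned to 20000 reads, Flt4 was still found in 99.6% of cells.

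Kdr was found in 98.8% of cells (interval 97.6 to 99.5%). Its level was 0 in the lowest cells, 5.94 reads per 10000 in the median cell and 46.8 in the highest, with a mean of 7.02 (SD 5.17 over cells). The mean on the ln scale was 1.87 (SD 0.68). Of the 8 cells without Kdr, 5 had under 20000 reads, and their median depth was 15441 reads against 153478 in the cells with it. At 20000 reads per cell its share was 97.2%.

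Flt1 was nearly absent. It was found in 16 cells (2.44%, interval 1.40 to 3.93%) and most of its reads came from a single cell. Where present, its level ran from 0.00449 to 1.34 reads per 10000 with a median of 0.214, and 7 of the 16 cells had no more than 2 reads. The highest Flt1 level was therefore below the Flt4 level at the 5th percentile of cells. At 20000 reads per cell, Flt1 was found in 1.41% of cells.

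The cells with Flt1 carried lymphatic genes. Of the 8 genes of the lymphatic identity list, Prox1, Pdpn, Mmrn1, Pecam1, Cdh5 and Reln were each found in 16 of 16 of them. Lyve1 and Ccl21a were found in 14 (87.5%), against 96.1% and 87.7% of the other cells. Pecam1, the CD31 gene, and Pdpn encode the markers used for sorting, and the study names Cdh5 a pan-endothelial marker. The shares of Pecam1, Pdpn and Cdh5 therefore say little about lymphatic identity. Genes of the blood endothelial list had a median share of 18.8% in the Flt1 cells and 18.7% in the other 640 cells. Thinned to 20000 reads the medians were 18.8% in 8 Flt1 cells and 9.91% in 560 others, where each step of the former is a single cell. Plvap, the protein of endothelial fenestral diaphragms, was found in 14 of the 16 Flt1 cells (87.5%, interval 61.7 to 98.4%) and in 65.3% of the others (interval 61.5 to 69%), and these intervals overlap. Of the other listed genes, Aqp1 and Emcn were in all Flt1 cells and in over 95% of the others. Vwf was found in 25% of the Flt1 cells and 10% of the others, Cd34 in 43.8% and 35.3%, Gpihbp1 in 81.3% and 72.97%, Sele and Ackr1 each in 6.25% and 1.88%, and Selp in 12.5% and 27.3%. Sox17, Ly6c1 and Esm1 were found in 0 of the 16, for which the exact interval reaches 20.6%, and in at most 2.03% of the others. In the cell with the most Flt1 reads, Prox1 was at 4.96, Flt4 at 3.23, Nrp2 at 0.0201 and Pdpn at 0.00501 reads per 10000, so the transcript of the sorting marker podoplanin was close to 0 there.

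Nrp2 was the neuropilin of these cells and had the highest coefficient of variation of the 3 widely detected members. It was found in 95.6% of cells (interval 93.7 to 97.02%). Its level was 0 in the lowest cells, 3.32 reads per 10000 in the median cell and 44.6 in the highest, with a mean of 4.63 (SD 4.73 over cells). The mean on the ln scale was 1.43 (SD 0.79). The coefficient of variation over cells was 1.02 for Nrp2, 0.737 for Kdr and 0.592 for Flt4. The mean levels ran in the opposite order, and counting error weighs more at low levels. The part of level in these coefficients was not tested. Of the 29 cells without Nrp2, 12 had under 20000 reads and 8 had at least 100000, the deepest having 566833 reads. Reads include PCR copies, so they do not count the molecules captured. The 5th percentile of Nrp2 was 0.0197 reads per 10000, against 0.851 for Kdr. Thinned to 20000 reads, Nrp2 was found in 87.3% of cells.

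Nrp1 was found in 4 cells (0.610%, interval 0.166 to 1.55%) with 90 reads in all. The cells had 2, 60, 2 and 26 Nrp1 reads, or 1.43, 3.14, 0.0128 and 1.84 reads per 10000. The level was thus above 1 read per 10000 in 3 of these cells. The cells at 1.43 and 0.0128 had the same 2 reads, in libraries of 13992 and 1567789 reads, so they differ in depth only. The cell with 26 reads also had 86 reads of haematopoietic genes, together with Flt4 at 17.2 and Kdr at 5.53 reads per 10000.

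Vegfc was found in 2 cells (0.305%) with 30 reads in all, 14 in one and 16 in the other, or 0.200 and 0.837 reads per 10000. Transcripts of this main VEGFR3 ligand were therefore at the edge of detection in cells that all held the transcript of its receptor. The shares of Nrp1 and Vegfc were below the median share in 3 lists of genes that mark other cell types and that LECs should lack: 1.83% for the fibroblast list, 1.52% for the haematopoietic list and 0.915% for the mural list. They were above the median of the epithelial list, 0%, in which Epcam and Krt18 were in no cell and Krt8 was in 0.610%. Shares this low are no evidence that the sorted cells in general express these genes, and whether the reads came from the cells themselves was not tested. Flt1 was above these medians and below the highest share among the fibroblast genes, 30.03%.

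A single cell held the most reads of both Nrp1 and Vegfc and also the lowest Flt4. It had 66.7% of all Nrp1 reads and 53.3% of all Vegfc reads. Its Flt4 level of 0.209 reads per 10000 was the lowest of all cells, the next lowest being 0.343, and it had no Kdr read. Mmrn1 was also lowest there, at 0.418 against 0.868 in the next lowest cell, while Prox1 was at 0.105 and Pdpn at 5.23. The fibroblast genes Dcn, Col1a1 and Col1a2 stood at 85.4, 24.8 and 11.3 reads per 10000, and the 5 genes of the fibroblast list summed to 130.1 against a median of 0 over all cells and 49.3 in the next highest cell. This library of 191264 reads thus went against the sorted cell type. Without it, Nrp1 was found in 3 cells (0.458%, interval 0.0946 to 1.33%) and Vegfc in 1 (0.153%, interval 0.00387 to 0.848%), and the shares of Flt4, Kdr and Nrp2 were 100%, 98.9% and 95.6%.

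**Figure D1:**
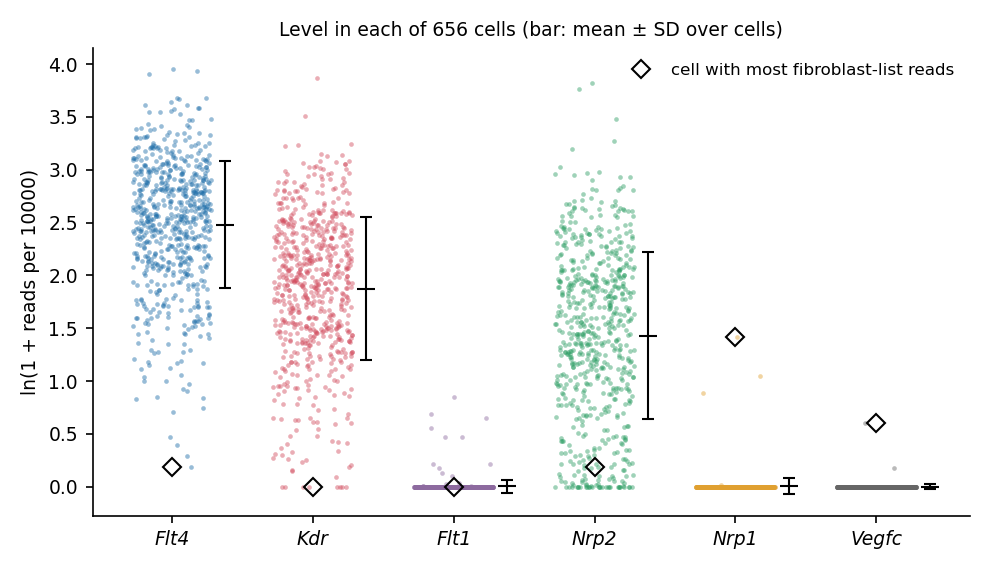
The y axis is the level of each gene in each cell, as the natural log of 1 plus reads per 10000, and each point is 1 cell. Bars give the mean ± SD over cells. Flt4, Kdr and Nrp2 fill broad ranges with means of 2.48, 1.87 and 1.43, whereas almost all cells sit at 0 for Flt1, Nrp1 and Vegfc. The open diamond is the cell with the most fibroblast-list reads, which is lowest for Flt4 and highest for Nrp1 and Vegfc.

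The 3 frequent members were furthest apart at low depth, and Nrp2 stayed below the other two at higher depth. At 1000 reads per cell, Flt4 was found in 67.8% of cells, Kdr in 42.4% and Nrp2 in 31.9%. At 5000 reads these shares were 96.95%, 85.8% and 70.6%, and in the cells thinned to 100000 reads they were 100%, 99.7% (interval 98.5 to 99.99%) and 93.6% (interval 90.6 to 95.8%). At 200000 reads they were 100%, 100% and 94.4%. The rare members stayed rare: at 100000 reads per cell the share was 2.94% for Flt1, 0.535% for Nrp1 and 0.535% for Vegfc.

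**Figure D2:**
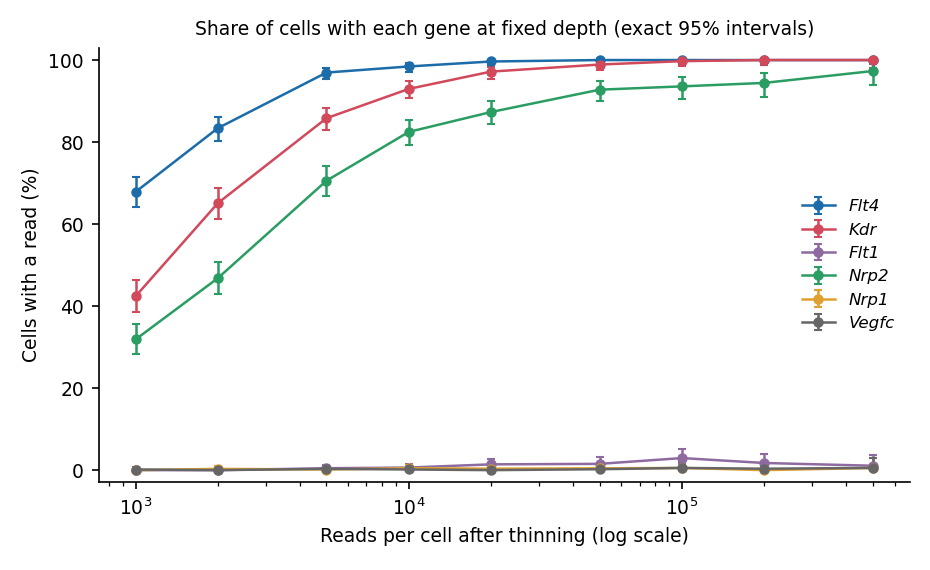
The x axis is the number of reads kept per cell on a log scale, and the y axis is the percentage of cells with at least 1 read of the gene. Lines join the 6 genes' values and bars are exact 95% intervals. Flt4, Kdr and Nrp2 climb from 67.8%, 42.4% and 31.9% at 1000 reads, while Flt1, Nrp1 and Vegfc stay below 3% throughout.

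Levels were compared between genes per kilobase of exon, since longer transcripts collect more reads in a full-length method. On that scale the order was Flt4 with 1.58, Kdr with 0.778 and Nrp2 with 0.391 reads per 10000 per kilobase, followed by Nrp1, Flt1 and Vegfc with 0.00100, 0.000697 and 0.000645. The last 3 neighbours rest on few reads and their order is not resolved: with reads pooled over cells it became Flt1, Vegfc and Nrp1. Flt4 exceeded Kdr by 2.03 times, and this ratio ranged from 1.32 to 2.45 (SD 0.360) over 12 blocks of 96 consecutive cell numbers, a split by cell number used to show the spread within the pool. Kdr exceeded Nrp2 by 1.99 times, with 1.33 to 3.20 (SD 0.487) over the blocks. Within single cells Flt4 was above Kdr in 81.1% (interval 77.9 to 84.02%), Flt4 above Nrp2 in 96.2% and Kdr above Nrp2 in 75.8%. The gap between Kdr and Nrp2 depended on the length used: per kilobase of coding sequence it was 1.05, the Nrp2 exons measuring 11842 bases of which 2793 are coding in its longest coding sequence, and with reads pooled over cells it was 2.65. The ratio of Flt4 to Nrp2, 4.04 by exon length, was 1.92 by coding length.

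Most cells held the 2 receptors and the co-receptor together. At 20000 reads, Flt4, Kdr and Nrp2 were found jointly in 85.2% of cells (interval 82.02 to 88.03%). Another 67 cells had Flt4 and Kdr without Nrp2, 11 had Flt4 and Nrp2 without Kdr, 4 had Flt4 alone, 1 had Kdr and Nrp2, and 1 had none. Joint detection of Kdr and Nrp2 was 85.4%, where the product of their separate shares was 84.9%, so the joint share was close to that product. Without thinning, 94.5% of cells had all 3.

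The levels of the 3 genes varied together weakly. Over the thinned cells, Spearman's rho was 0.307 between Flt4 and Nrp2, 0.241 between Flt4 and Kdr, and 0.139 between Kdr and Nrp2. For scale, all genes found in at least 30% of these cells were compared. Their highest rho was 0.429 with Flt4, 0.260 with Kdr and 0.350 with Nrp2, and the medians were 0.0008, 0.008 and 0.013. These values describe cells of 1 pool that share library preparation. Depth before thinning had a rho of -0.03 with Flt4, 0.03 with Kdr and -0.15 with Nrp2.

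Means over the blocks of cell numbers average many cells, so a smaller spread than over single cells is built in. The mean of Flt4 ranged from 10.2 to 15.8 reads per 10000, that of Kdr from 5.54 to 8.87 and that of Nrp2 from 3.48 to 6.05, with coefficients of variation of 0.146, 0.145 and 0.168. The rare members were uneven, with coefficients of variation of 1.43 for Flt1, 1.98 for Nrp1 and 2.93 for Vegfc, which were found in 8, 4 and 2 of the 12 blocks. Blocks held 18 to 83 cells each, and the lowest Flt4 and Nrp2 means came from the same block, the one with 18 cells.

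Clustering on the variable genes, with the VEGF genes left out, gave 5 clusters, and none of the members was among the variable genes in any setting tried. Cluster 1 (34.9% of cells) was Ptx3+ capillary-like, with Ptx3, Stab2, Kcnj8, Itih5, Mrc1 and Stab1 raised. Lyve1 of the precollecting list and Plvap, Aqp1 and Selp of the blood endothelial list were also raised in it. Cluster 2 (26.5%) was precollecting-like (Foxp2, Apoe, Bmp4), although Lyve1, also on that list, was not raised in it, and Gja4 and Clu of the downstream valve list and Adm of the upstream valve list were. Cluster 4 (12.3%) was upstream-valve-like (Cldn11, Neo1, Gata2), although Foxc2, Itga9 and Adm, also on that list, were not raised in it. Cldn11 and Esam of the downstream valve list and Stc1 of the Ptx3- capillary list were raised there too. Clusters 3 (16.01%, with Fndc1, Reln, Ccl21a) and 5 (10.2%, with Ptn, Anxa3 and Stc1) both matched the Ptx3- capillary markers with different genes. Lyve1 was raised in cluster 3 too, and Clu in cluster 5. Of the blood endothelial list, Vwf and Emcn were raised in cluster 2, Gpihbp1 in cluster 3, Cd34 in cluster 4, and Cd34 and Vwf in cluster 5. The names were rebuilt from markers, so these clusters need not hold the same cells as the classes of the study.

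Nrp2 differed most across the clusters. The ratio of the highest to the lowest cluster mean was 2.02 for Nrp2, 1.57 for Flt4 and 1.40 for Kdr. Mean Nrp2 was 5.86 reads per 10000 in the Ptx3+ capillary-like cells (SD 1.42 over blocks), 5.82 in cluster 5 (SD 2.31), 4.13 in cluster 3 (SD 1.01), 3.67 in the precollecting-like cells (SD 0.712) and 2.90 in the upstream-valve-like cells (SD 1.78). Mean Flt4 was 15.4 (SD 2.70), 12.6 (SD 2.89), 14.3 (SD 2.78), 10.8 (SD 2.84) and 9.78 (SD 2.90) in the same order of clusters. Mean Kdr was 7.07 (SD 1.48), 6.70 (SD 2.27), 6.62 (SD 3.55), 7.95 (SD 1.27) and 5.68 (SD 1.82). Kdr was thus highest in the precollecting-like cells, where Flt4 and Nrp2 were low, and it was higher there than in the upstream-valve-like cells in 9 of 10 blocks. Kdr was higher in the Ptx3+ capillary-like than in the precollecting-like cells in 4 of 12 blocks. The place of the highest Kdr mean depended on how the clusters were drawn. Without regression it was in the Ptx3+ capillary-like cells (8.58 reads per 10000), and no cluster was named precollecting-like. With another seed it was in an unnamed cluster, at 8.30 against 7.96 in the precollecting-like cells. An unnamed cluster was also highest with more variable genes and with the VEGF genes kept. In the other settings tried, the highest Kdr mean stayed in the precollecting-like cells.

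The clearest contrast was between the Ptx3+ capillary-like and the upstream-valve-like cells. Nrp2 was 2.02 times higher in the former, and higher in 10 of the 10 blocks with at least 3 cells of each. Flt4 was 1.57 times higher, and higher in 9 of 10 blocks. Kdr was 1.25 times higher, and higher in 7 of 10 blocks. At 20000 reads, Nrp2 was found in 90.7% of the former (interval 85.7 to 94.4%) and 69.6% of the latter (interval 57.3 to 80.1%). These were the clusters with the highest and lowest mean Nrp2, and the intervals cover counting error only. The sizes depended on how the clusters were drawn. The Nrp2 ratio was 3.66 at a finer resolution, 3.97 without regression and 4.29 with cells thinned to 20000 reads, and the Flt4 ratio was 2.08 without regression, all in the same direction. Flt4 and Nrp2 were also both higher in the Ptx3+ capillary-like than in the precollecting-like cells in 12 of 12 blocks, by 1.43 and 1.60 times. Median depth differed between the clusters, from 91853 reads in cluster 5 to 208922 in cluster 2, and was 112292 in the Ptx3+ capillary-like and 137202 in the upstream-valve-like cells, and Nrp2 had a rho of -0.15 with reads before thinning. Among cells with at least 100000 reads the Nrp2 ratio was 2.26, and the part of depth in the contrast was not tested further. The sum of the immediate early genes, described further on, averaged 143.8 reads per 10000 in the Ptx3+ capillary-like and 151.3 in the upstream-valve-like cells. The median cell was further apart, at 98.2 and 135.3 in the same order. The part of these genes in the differences was not tested.

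By a fold of 1.5 in either direction (0.1 reads per 10000 added to both means), among the 9666 genes found in at least 10% of cells, only 3 members could be counted, since Flt1, Nrp1 and Vegfc did not pass that filter. Against all other cells, 0 of the 3 passed the fold in cluster 1, where 9.93% of all genes did, 0 in cluster 2 (8.96%), 0 in cluster 3 (13%), 1 in cluster 4 (16.1%), which was Nrp2 on the low side, and 0 in cluster 5 (14.1%). Between the Ptx3+ capillary-like and upstream-valve-like cells, Flt4 and Nrp2 passed, 2 of 3, against 20.8% of all genes. With 3 members counted, these shares are values and say nothing particular about the members.

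**Figure D3:**
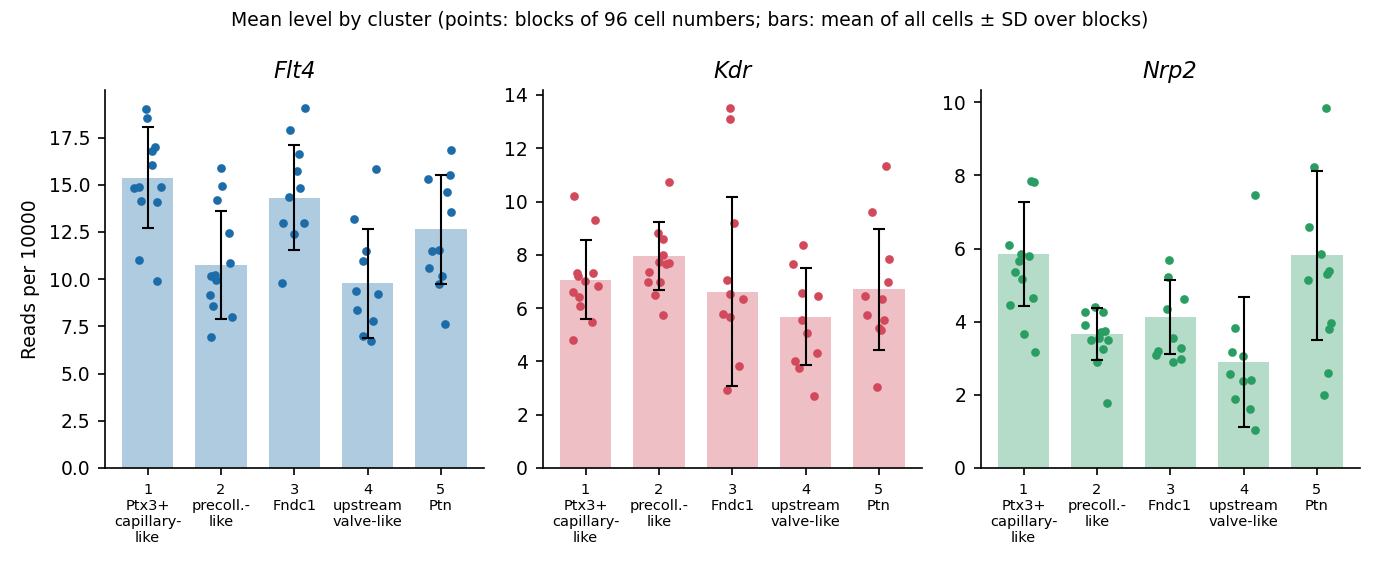
The y axes give the mean level of Flt4, Kdr and Nrp2 in reads per 10000, and the x axes the 5 clusters. Bars are means over all cells of a cluster, points are means of the blocks of 96 cell numbers with at least 3 cells of it, and error bars are the SD over these blocks. Nrp2 falls from 5.86 in the Ptx3+ capillary-like to 2.90 in the upstream-valve-like cells and Flt4 from 15.4 to 9.78, while the Kdr bars stay between 5.68 and 7.95.

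Flt1 was found in 6 cells of cluster 2, 4 of cluster 1, 3 of cluster 3, 2 of cluster 4 and 1 of cluster 5, which is 3.45%, 1.75%, 2.86%, 2.47% and 1.49% of their cells. Of the 4 Nrp1 cells, 3 were in cluster 1 and 1 in cluster 3, and the 3 included the cell with fibroblast genes. Among the cells without Nrp2, 12 of 29 were in the precollecting-like cluster, and among those without Kdr, 5 of 8 were in the upstream-valve-like cluster. Of all cells, 26.5% and 12.3% were in these clusters. Without thinning, Nrp2 was found in 93.1% of the precollecting-like and 93.8% of the upstream-valve-like cells. At 20000 reads these shares were 84.6% and 69.6%.

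The genes whose levels were most like those of the members were sought by Spearman's rho among the 3329 genes found in at least 30% of the thinned cells. For Flt4 these were Mmrn1 (0.429), Reln (0.411), Lyve1 (0.401), Tspan18 (0.367) and the scavenger receptor gene Stab1 (0.360), of which Mmrn1, Reln and Lyve1 are known as lymphatic endothelial genes. For Kdr they were Mmrn1 (0.260), Pdpn (0.258), Flt4 (0.241), Reln (0.239) and Aplp2 (0.194). For Nrp2 they were the water channel gene Aqp1 (0.350), Sparc (0.327), Igfbp4 (0.322), Flt4 (0.307) and Tspan18 (0.292). Prox1 was not among them, with a rho of -0.01 with Flt4, 0.08 with Kdr and -0.01 with Nrp2. With the cluster means removed, Mmrn1, Reln and Lyve1 stayed among the 5 genes most like Flt4. Tspan18 and Stab1 gave way to Ece1 and Ltbp4. Flt4 and Mmrn1 also rose and fell together inside each cluster, with rho from 0.20 to 0.52. Nrp2 and Mmrn1 did not do so everywhere, with rho of -0.02 in the Ptx3+ capillary-like cells and 0.38 in the precollecting-like cells. The median rho of Flt4 with all other genes was 0.00.

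At the other end, the genes most unlike Flt4 were Junb (-0.36), Jun (-0.36), Socs3 (-0.36), Atf3 (-0.33) and Btg2 (-0.33). Junb, Jun and Atf3 are immediate early genes, which are induced within minutes by many stimuli, tissue dissociation included. The sum of 9 immediate early genes had a rho of -0.35 with Flt4, -0.17 with Kdr and -0.14 with Nrp2. For Flt4 the sign was the same inside each cluster, from -0.24 in the upstream-valve-like cells to -0.43 in cluster 3. The mean sum was 170.6 reads per 10000 over all cells and 193.8 in the precollecting-like cells. The part of these genes in the Flt4 values was not tested. With the sum of interferon-stimulated genes, rho was 0.08 for Flt4, 0.03 for Kdr and 0.08 for Nrp2.

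**Figure D4:**
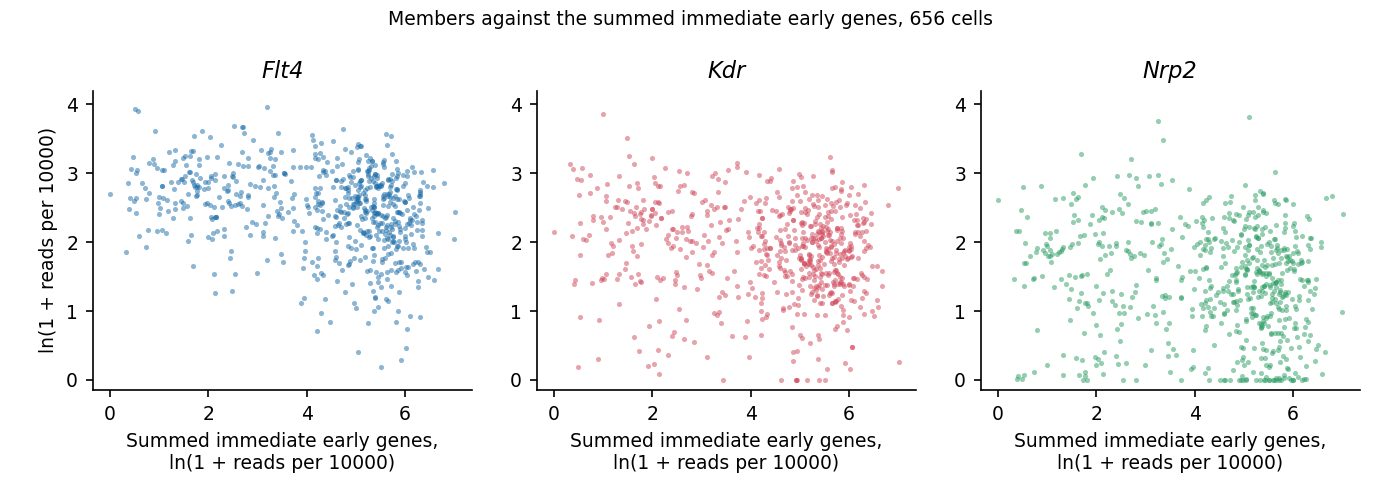
Each point is 1 cell. The x axis is the sum of 9 immediate early genes and the y axis the level of Flt4, Kdr or Nrp2, both as the natural log of 1 plus reads per 10000. Low Flt4 levels are found mainly among cells with a high sum, with a rho of -0.35 at equal depth, while Kdr (-0.17) and Nrp2 (-0.14) show less of a slope.

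The wider pathway was described by lists of 84 genes other than the members. Of these, 43 (51.2%) were found in at least 50% of cells, against 12.98% of all 20981 genes with a read, and 31 at 20000 reads per cell. The lists were chosen for genes known to act in endothelium. Among the other ligands, Pgf, the gene of the VEGFR1 ligand placental growth factor, was found in 70.1% of cells (interval 66.5 to 73.6%) at 3.52 reads per 10000 and 107.05 in the highest cell. Its mean per kilobase of exon was 1.21, between those of Flt4 and Kdr, but this mean rests on the upper cells: the median cell had 0.327 reads per 10000 and the coefficient of variation was 2.47. At 20000 reads Pgf was found in 51.1% of cells. Vegfb, Vegfa and Vegfd were found in 23.2%, 16.9% and 8.54% of cells. Pgf was therefore the only VEGF family ligand of this list found in most cells, while its receptor gene Flt1 was found in 2.44%.

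The genes that act on VEGF-C outside the cell were rare, apart from proteases with general roles. Ccbe1 and Adamts3, the cofactor and the protease that activate VEGF-C, were found in 9 and 0 cells, and for the latter the exact interval reaches 0.561%. Plg, the plasminogen gene, was found in 0 cells. The lysosomal protease gene Ctsd was found in 98.9% and the proprotein convertase gene Furin in 45.6%.

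Partners of the receptors were common. Of 16 listed, 13 were found in at least 50% of cells. They included the tetraspanin gene Cd63 (99.1%), the VE-cadherin gene Cdh5 (96.8%), the endocytic adaptor gene Dab2 (90.1%), the integrin gene Itgb1 (88.4%), the phosphatase gene Ptprb (87.96%) and Tmem204 (85.5%), whose product is known as a partner of VEGFR3. Itga9, an integrin needed for lymphatic valves, was found in 74.8%.

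For the neuropilin side of the pathway, the semaphorin genes Sema3f, Sema3d and Sema3a were found in 89.5%, 87.96% and 72.3% of cells, and Sema3b in 1.52%. Sema3f encodes a ligand of neuropilin 2. Plexins, which pair with neuropilins to signal, were led by Plxna2 (73.2%), Plxnd1 (61.4%) and Plxna4 (54.6%), with Plxna1 at 12.3% and Plxna3 at 4.42%.

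Inside the cell, 8 of 20 signal transduction genes were found in at least 50% of cells, among them the adaptor Shc1 (85.8%), Rac1 (83.5%), phospholipase Plcg1 (79.4%) and endothelial nitric oxide synthase Nos3 (59.9%), and Src was lowest at 4.12%. Of 10 feedback inhibitors, 2 did so: the ERK phosphatase gene Dusp6 (72.6%) and Ptpn1 (61.9%). Of 17 transcription factors, 12 did so, among them Klf4 (97.1%), Ets1 (92.4%) and Nr2f2 (86.7%), and the valve regulator Foxc2 was found in 15.9%.

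**Figure D5:**
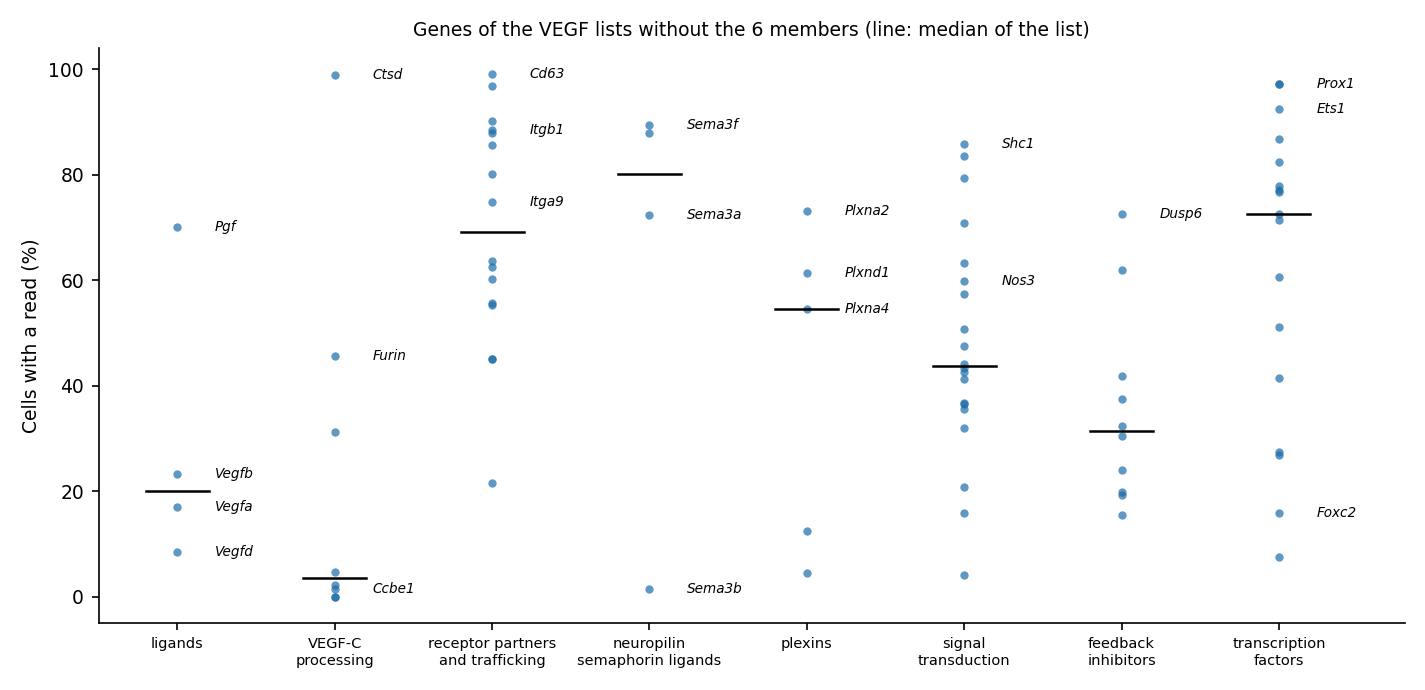
The y axis is the percentage of cells with a read, and each point is 1 of the 84 genes of the VEGF lists other than the members, grouped by role on the x axis. The line is the median of each list. Receptor partners, semaphorins and transcription factors reach high shares, and among the ligands Pgf at 70.1% stands above Vegfb, Vegfa and Vegfd.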

How the data were processed

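The submitters' labels put all samples in 1 group, with 1 cell per sample, and 656 of the 1152 labelled cells were analysed here. According to the methods and processing notes, the authors aligned reads to mm10 with STAR, counted them per gene with featureCounts (Subread), kept cells with at least 2000 genes and at most 10% mitochondrial reads, and normalised with Seurat 4.1.0. The deposited values fitted the natural log of 1 plus reads per 10000, since their exponentials minus 1 summed to 10000 in every cell, although the methods name log2. Taking the smallest value above 0 in each cell as 1 read gave whole reads for 100% of values within 0.01. Of the values above 0, 79.9% were even (57.3 to 94.2% per cell), so most counts of 2 reads may be 1 read pair, and PCR copies were not collapsed. Thus reads are not independent molecules.

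Members and gene lists were chosen with earlier results of these data known. A gene was called detected at any value above 0. Named genes were the members, up to 10 genes per list (highest or lowest share, highest level per length, or a role in the text), the cluster markers and the 5 genes most like Flt4, Kdr and Nrp2 (Nrp1 was in too few cells to be compared). The genes most unlike Flt4 and the cell with fibroblast genes were added after their values were seen. Figf, Sema3c, Sema3e, Sema3g, Apln, Krt5, Cdh1 and Sox10 were not analysed here. Positions and exon lengths came from GENCODE M21 (22258 of 23168 symbols matched) and promoters from RefSeq (6 of 6 members matched). Clusters were made with Seurat 5.3.0 and R 4.3.3 from 2000 variable genes and 15 components, with regression of depth, mitochondrial share and dissociation and ribosomal scores, at the lowest resolution that gave at least 5 clusters (0.7). A cluster was named from at least 3 raised markers (1.5 times all other cells, found in at least 10% of the cluster), a limit set after the data were seen. Because wells held single sorted cells, doublets were not called. At 20000 reads 568 cells were kept, and 374 had at least 100000 reads. Clusters 1 to 5 held 229, 174, 105, 81 and 67 cells. Other steps used Python 3.11.15 with scipy 1.17.1. Read recovery, thinning and clustering were tested on simulated data over 23168 genes, where recovery gave 100% of values and clustering put 99.8% of cells with their planted class, likeness over 6867 genes (5 of 5 planted genes found) and folds over 16394 genes (98% of planted genes called). The planted folds were larger than those of the members between the clusters described above. How well smaller folds are found was not tested. Alternatives covered the detection limit, depth, cells, lengths and clustering settings.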

Additional observations from a re-analysis of the deposited data

How the results depend on the processing

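Of the values that answer a comparison, 39 alternatives moved. Shares of cells counted as moved when outside the exact interval, and ratios when beyond the SD over blocks. Most that moved were shares, which have no direction to change. The ratios that moved kept their direction. Counting only ln values above 0.5, Flt4, Kdr, Flt1 and Nrp2 were found in 99.4%, 95.7%, 0.610% and 83.4% of cells, and above 1 in 98.2%, 89.8%, 0% and 71.2%, with Vegfc at 0%. Thinned to 5000 reads, Flt4, Kdr, Flt1, Nrp2 and Nrp1 were at 96.95%, 85.8%, 0.457%, 70.6% and 0.152%. At 20000 reads, Kdr, Nrp2 and Vegfc were at 97.2%, 87.3% and 0%, and at 100000 reads Kdr and Nrp2 at 99.7% and 93.6%. Leaving out the 25% of cells poorest in genes, Kdr and Nrp2 were at 99.6% and 98.2%. With reads taken as pairs and thinned to 10000 pairs, a choice made after seeing the data, Flt4, Kdr, Flt1, Nrp2 and Vegfc were at 98.9%, 94.6%, 0.703%, 81.02% and 0%. Joint detection of Flt4, Kdr and Nrp2 was 94.5% unthinned, 60.2% at 5000 reads, 93.3% at 100000 reads, 76.6% with at least 2 reads and 77.2% with pairs. The ratio of Kdr to Nrp2 was 1.05 by coding length and 2.65 with pooled reads, and that of Flt4 to Nrp2 was 3.02 by longest transcript and 1.92 by coding length. Between the Ptx3+ capillary-like and upstream-valve-like cells, the Flt4 ratio was 2.08 without regression, and the Nrp2 ratio was 3.66 at resolution 1.5, 3.97 without regression and 4.29 with thinned cells. The cause was not tested. Leaving out each block of cell numbers in turn gave 100 to 100% for Flt4, 98.6 to 99.2% for Kdr, 2.17 to 2.79% for Flt1, 95.01 to 96.01% for Nrp2, 0.485 to 0.693% for Nrp1 and 0.169 to 0.347% for Vegfc, and ratios of 1.52 to 1.66 for Flt4, 1.19 to 1.32 for Kdr and 1.92 to 2.22 for Nrp2. No paired analysis was possible because there was 1 group and no test. Depth limits the rare members, for which 3 cells are 0.457%.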
